A study of Mus musculus with 20 samples.

Results

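Neuropeptide Y (Npy) and its receptors Npy1r, Npy2r and Npy5r were followed in RNA-seq libraries of the neocortex and hippocampus of mice that lack the APP family in forebrain excitatory neurons. The 4 genes were found by their symbols in the gene column of all 20 libraries and are 4 of 24421 genes counted. All 4 passed the filter on low counts in both regions. The cTKO mice carried floxed App, Aplp1 and Aplp2 alleles with a Camk2a-Cre transgene, and their littermate controls carried the same floxed alleles without Cre, although their label reads wild type. Mice were 3 months old, of both sexes, on a hybrid background of C57BL/6J and 129, and each genotype and region had 5 libraries. Camk2a-Cre acts after birth in excitatory neurons of the forebrain, so interneurons and glia of the cTKO mice keep the 3 genes. Each genotype had 5 mice, and the labels do not name the mouse behind a library.

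NPY is cut from a longer precursor in dense-core vesicles, amidated at its end and released by active neurons. In the neocortex and hippocampus it is made mostly by GABAergic interneurons, and granule cells of the dentate gyrus are known to make it after seizures. Its receptors couple to inhibitory G proteins of the Gi/o class: Y1, encoded by Npy1r, acts mostly on the postsynaptic cell, Y2, encoded by Npy2r, sits mostly on nerve endings where it limits transmitter release, and Y5, encoded by Npy5r, shares its locus and many cells with Y1.

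Npy lies on the plus strand at chr6:49822710-49829507 (GRCm38, GENCODE M21), and its 4 exons hold 566 bases. Npy2r lies on the minus strand at chr3:82538383-82548084 with 3383 exonic bases. Npy5r, on the minus strand at chr8:66679965-66688128 with 2555 exonic bases, and Npy1r, on the plus strand at chr8:66697192-66706792 with 3454 exonic bases, face away from each other with 9063 bases and 0 annotated genes between them. In this annotation none of the 4 genes overlaps another gene. The stretch of Npy that codes for the mature peptide is shown because it is the signal molecule of the system. It spans exon 2 (chr6:49823682-49823785) and exon 3 (chr6:49827489-49827501), plus strand, and the capitals mark the codons at which the precursor is cut and amidated.
Npy mature peptide coding: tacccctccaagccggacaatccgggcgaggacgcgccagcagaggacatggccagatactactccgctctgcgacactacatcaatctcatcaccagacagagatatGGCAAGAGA
The promoters of Npy and Npy2r are shown because these genes had opposite levels in the control regions, Npy being higher in the neocortex and Npy2r in the hippocampus. Each runs from 250 bases before to 50 bases after the gene start in RefSeq (GRCm38.p6), that of Npy at chr6:49822460-49822759 on the plus strand and that of Npy2r at chr3:82548036-82548335 on the minus strand, and the capitals mark GGGCGG, the GC box bound by Sp1 factors.
Npy promoter: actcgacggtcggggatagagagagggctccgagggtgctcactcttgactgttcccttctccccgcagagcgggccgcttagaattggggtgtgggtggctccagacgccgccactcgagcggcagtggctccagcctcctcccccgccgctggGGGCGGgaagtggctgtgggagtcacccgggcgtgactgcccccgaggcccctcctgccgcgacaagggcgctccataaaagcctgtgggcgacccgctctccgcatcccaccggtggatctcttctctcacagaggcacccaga
Npy2r promoter: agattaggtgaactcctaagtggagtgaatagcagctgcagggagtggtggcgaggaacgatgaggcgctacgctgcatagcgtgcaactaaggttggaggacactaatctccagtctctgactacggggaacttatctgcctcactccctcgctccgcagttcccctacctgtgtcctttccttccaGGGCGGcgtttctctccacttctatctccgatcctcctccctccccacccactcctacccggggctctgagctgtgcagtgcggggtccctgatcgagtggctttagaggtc
All 4 genes matched a RefSeq promoter of this length, and 5 motifs were searched on both strands. GGGCGG was found once in the promoter of Npy, 95 bases before the start, and once in that of Npy2r, 62 bases before it, and 35.7% of 32851 promoters hold it. TGANTCA, the AP-1 motif, was found in the promoter of Npy1r and in 7.81% of promoters, and CACGTG, the E-box, in that of Npy5r and in 7.15% of promoters. TATAAA (13.6% of promoters) and TGACG, the core of the cAMP response element (20.8% of promoters), were found in 0 of the 4, and no 2 of the matches overlapped. These are matches of letters in a fixed window and were not tested as binding sites.

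Levels are given as CPM, the count of a gene relative to the whole library, on library sizes scaled by TMM. Total counts ranged from 12169474 to 25331954 per library, 3 counts corresponded to between 0.123 and 0.248 CPM, and the least abundant of the 4 genes, Npy5r, had at least 49 counts in every library. App, Aplp1 and Aplp2 did not overlap between genotypes in either region and were lower in cTKO mice, with log2 fold changes between -2.10 and -1.25. In control libraries, 3 of 4 neocortical identity genes were lower and 3 of 4 hippocampal identity genes were higher in the hippocampus than in the neocortex. In 2 libraries, cTKO neocortex 5 and cTKO hippocampus 4, 6 marker genes of embryonic blood and tissue summed to 629 and 387 CPM, against 0.862 to 3.08 CPM in the other 18 libraries. RNA of the neocortex and hippocampus was extracted with different kits, so the kit and the region cannot be told apart. Xist, transcribed in females, was above 412 CPM in 2 libraries of each group and at most 0.616 CPM in the other 3.

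Npy was the most abundant of the 4 genes in every group on a scale of CPM per kilobase of exon (RPKM). Its level was 224 ± 31.1 RPKM (SD, n = 5) in control neocortex and 131 ± 12.8 RPKM in control hippocampus, where the highest receptor level in a library was 21.2 RPKM, that of Npy2r. Among the receptors, Npy1r led in control neocortex at 10.5 ± 1.47 RPKM (n = 5), ahead of Npy5r at 1.85 ± 0.246 RPKM and Npy2r at 1.78 ± 0.299 RPKM, which did not differ beyond their spread. In control hippocampus the order was another one, with Npy2r at 20.6 ± 0.601 RPKM, Npy1r at 10.9 ± 1.37 RPKM and Npy5r at 3.06 ± 0.158 RPKM.

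The makeup of the receptor transcripts differed more between the regions than between the genotypes. Npy1r took 74.2% ± 2.12 (SD, n = 5) of the 3 receptors' summed RPKM in control neocortex and 67.4% ± 3.06 in cTKO neocortex, and Npy2r took 12.5% ± 0.689 and 17.8% ± 2.84. In the hippocampus, Npy2r took 59.6% ± 2.74 in controls and 58.0% ± 8.27 in cTKO mice, and Npy1r 31.5% ± 2.93 and 33.1% ± 6.05. The share of Npy2r did not exceed 21.3% in any neocortical library and was at least 48.7% in every hippocampal library.

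**Figure D1:**
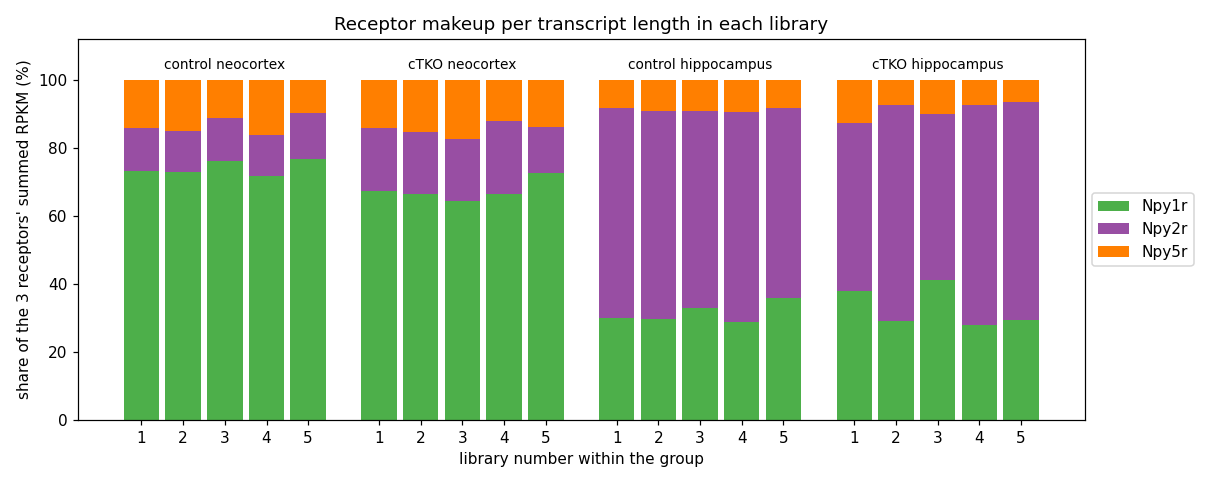
Stacked bars show the share (%) of Npy1r, Npy2r and Npy5r in their summed RPKM in each of the 20 libraries, grouped by genotype and region, with the library number on the x axis. Npy1r makes up most of each neocortical bar and Npy2r most of each bar of the control hippocampus, and Npy2r is between 48.7% and 64.7% in cTKO hippocampus.

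The comparison of genotypes asks whether loss of the APP family in excitatory neurons alters transcript levels in each region. In the neocortex, Npy was counted at 106, 121, 125, 155 and 128 CPM in the control libraries 1 to 5 and at 169, 174, 202, 250.4 and 141 CPM in the cTKO libraries 1 to 5. In all, 4 of the 5 cTKO libraries lay above every control library, and cTKO library 5 lay within the control range, so the groups overlapped. Library 5 is the one with the high sum of embryonic markers, and their part in its level of Npy was not tested. The means were 127 ± 17.6 CPM and 187 ± 41.5 CPM (SD, n = 5 each). The log2 fold change of Npy was 0.57 (standard error 0.135, 95% interval 0.28 to 0.86), which is 1.48-fold, and it did not pass the test over all genes (unadjusted p = 0.000891, FDR 0.124 by the quasi-likelihood test of edgeR after Benjamini-Hochberg adjustment). Other tests on the same counts called it, with an FDR of 0.00892 by edgeR's exact test, 0.00851 by its likelihood ratio test and 0.00647 by DESeq2, whereas the other 7 of 10 settings, all quasi-likelihood fits, did not, and a fit of all 20 libraries gave an FDR of 0.450. When single libraries were left out, Npy passed in 1 of 10 quasi-likelihood fits, that without cTKO neocortex 5 (log2 fold change 0.65, FDR 0.0244), and the FDR of the others went up to 0.280. An exact two-sided permutation test of its log2 CPM gave p = 0.0159 for Npy in the neocortex, where the smallest p that 5 libraries against 5 allow is 0.00794.

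In the hippocampus, Npy was counted at 72.9, 80.1, 63.9, 82.0 and 71.7 CPM in the control libraries 1 to 5. The cTKO libraries 1 to 5 held 249.7, 277, 136, 143 and 80.3 CPM of Npy, so that libraries 1 and 2 stood highest, libraries 3 and 4 in between and library 5 within the control range. Of the 5 cTKO libraries, 4 were above every control library, as in the neocortex. The control mean was 74.1 ± 7.26 CPM and the cTKO mean 177 ± 83.0 CPM (SD, n = 5 each), and the highest cTKO library held 3.45 times the Npy of the lowest, against 1.28 times among controls. The within-group SD of log2 CPM of Npy in cTKO hippocampus was larger than that of 98.0% of the genes tested in both regions. The log2 fold change was 1.26 (standard error 0.266, 95% interval 0.69 to 1.84), or 2.40-fold, and it did not pass the test over all genes either (unadjusted p = 0.000415, FDR 0.0654 by the quasi-likelihood test). edgeR's exact test gave an FDR of 0.000543, its likelihood ratio test 0.000514 and DESeq2 0.00442. Of the other 7 settings of the quasi-likelihood fit, 2 called Npy, with an FDR of 0.00648 in a fit of all 20 libraries and 0.0409 with Xist as a covariate, and the highest FDR was 0.120 in a robust fit. When single libraries were left out, Npy passed in 1 of 10 fits, that without cTKO hippocampus 5 (log2 fold change 1.45, FDR 0.00677), and the FDR of the others went up to 0.177. Without cTKO hippocampus 4, the library there with the high sum of embryonic markers, the log2 fold change was 1.32 and the FDR of the quasi-likelihood test 0.0762. The exact two-sided permutation test gave p = 0.0159 for Npy here too.

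Striatal markers, of a neighbouring tissue that also holds Npy interneurons, summed to 340.4 to 491 CPM in control and 373 to 679.9 CPM in cTKO neocortex, with 0 of 6 past the FDR and 2 of 6 higher at an unadjusted p under 0.05, and their part in the neocortical level of Npy was not tested. Of all genes tested, 10.4% in the neocortex and 12% in the hippocampus had an unadjusted p under 0.05 in either direction. In cTKO hippocampus the 2 libraries with Xist held 80.3 and 136 CPM of Npy and the 3 without it held 143 to 277 CPM, whereas in cTKO neocortex 141 and 202 CPM with Xist stood beside 169 to 250.4 CPM without it. Xist entered the genotype fits as a covariate in 1 of the settings above, but an effect of sex itself on these levels was not tested. Astrocyte markers summed to 615 to 862 CPM in control and 695 to 3650.1 CPM in cTKO hippocampus, the highest being library 4, and to 280 to 362 CPM in control and 278 to 722 CPM in cTKO neocortex, where library 4 was again highest. Of the 3 markers 0 passed the FDR in either region and 1, Gfap, was higher at an unadjusted p under 0.05 in both, with log2 fold changes of 1.58 (FDR 0.163) in the hippocampus and 0.96 (FDR 0.359) in the neocortex. Gfap had means of 427 CPM in control and 1268 CPM in cTKO hippocampus. In the hippocampus Aqp4 had 0.42 (FDR 0.471) and Aldh1l1 0.02 (FDR 0.980). In the neocortex Aqp4 had -0.01 (FDR 0.969) and Aldh1l1 -0.08 (FDR 0.789). The part of astrocytes in the levels of Npy was not tested. Markers of sympathetic neurons, which make NPY outside the brain, summed to at most 4.75 CPM in any library. From bulk RNA, more cells that make Npy and more Npy RNA in each cell cannot be told apart, and the same holds for a lower level.

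**Figure D2:**
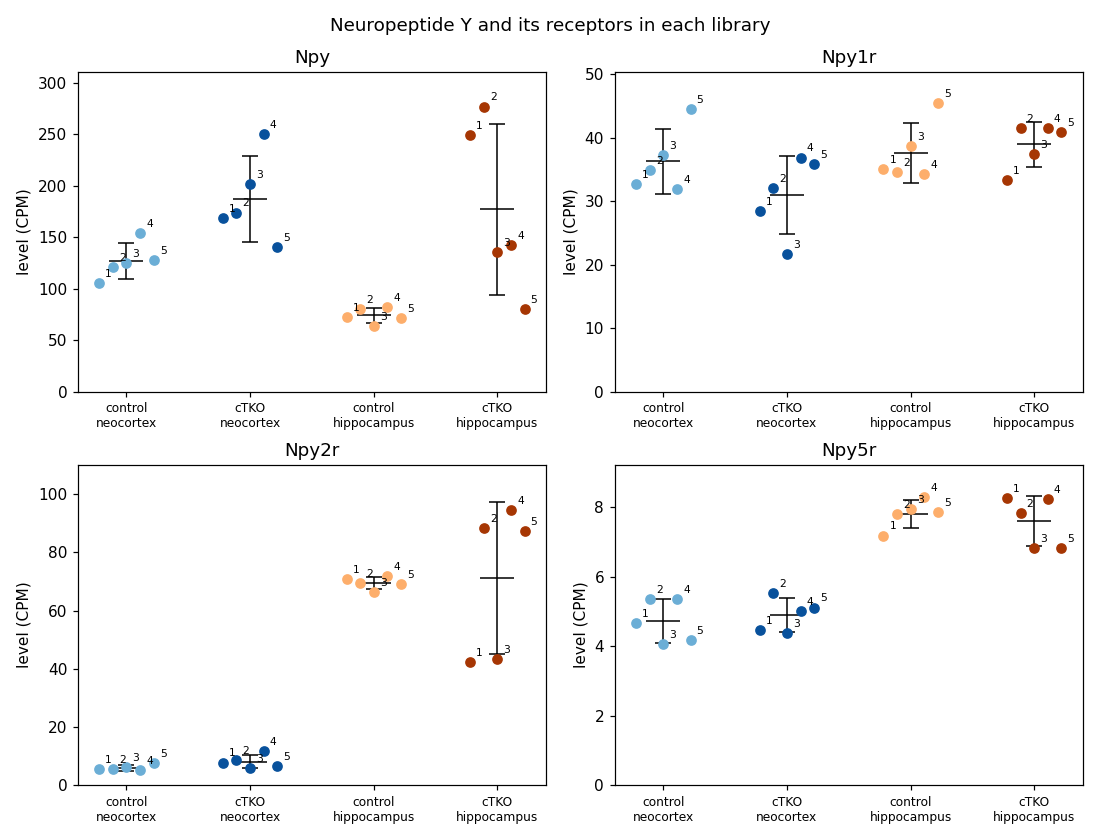
Each panel shows the level (CPM) of 1 gene in the 20 libraries, as points numbered by library within the 4 groups, with the group mean as a bar and the SD as whiskers (n = 5). For Npy, 4 of 5 cTKO points lie above all controls in each region, and Npy2r in cTKO hippocampus splits into 2 libraries at 42.3 and 43.3 CPM and 3 between 87.3 and 94.6 CPM.

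The 3 receptors did not pass the test for genotype in either region, but their intervals differ in width. Npy1r was between 31.9 and 44.5 CPM in control neocortex and between 21.7 and 36.9 CPM in cTKO neocortex, with a log2 fold change of -0.22 (95% interval -0.51 to 0.07, FDR 0.616 by the quasi-likelihood test). The cTKO libraries 1 and 3 lay below every control library, and the groups overlapped. In the hippocampus the log2 fold change of Npy1r was 0.06, with a 95% interval of -0.15 to 0.26.

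Npy2r, scarce in the neocortex, was at 5.46, 5.60, 6.12, 5.16 and 7.71 CPM in control libraries 1 to 5 and at 7.72, 8.47, 5.94, 11.6 and 6.46 CPM in cTKO libraries 1 to 5. The log2 fold change was 0.44 (95% interval 0.05 to 0.82), with an unadjusted p of 0.0307 but an FDR of 0.418 by the quasi-likelihood test. Library 4 of the cTKO neocortex had the highest level of Npy and also of Npy2r in its group. Of the hippocampal identity genes in the neocortex, 1 of 4, Wfs1, rose in cTKO mice (log2 fold change 0.94, FDR 0.0307), while Zbtb20 had -0.30, Prox1 -0.24 and Neurod2 0.11 (FDR 0.542 to 0.825), with a median of -0.06 over the 4. Their sum was 297 to 355 CPM in control and 342 to 623 CPM in cTKO libraries, and Wfs1, at means of 189 and 360.0 CPM, made up most of the difference. Between the control regions, however, Wfs1 was not higher in the hippocampus (log2 fold change -0.23, FDR 0.313 by the quasi-likelihood test), unlike the other 3 genes. Whether RNA of hippocampal tissue took part in the neocortical level of Npy2r was not tested.

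In the hippocampus, Npy2r was nearly the same in the control libraries, at 70.7, 69.6, 66.5, 71.9 and 69.0 CPM. The cTKO libraries 1 to 5 held 42.3, 88.3, 43.3, 94.6 and 87.3 CPM, so that libraries 1 and 3 lay below every control and libraries 2, 4 and 5 above every control. The means, 69.5 ± 2.03 CPM and 71.2 ± 26.0 CPM (SD, n = 5 each), were close, and the log2 fold change of 0.04 had a 95% interval of -0.41 to 0.49 (FDR 0.972 by the quasi-likelihood test). This fold change is therefore an average over libraries on both sides of the controls. The within-group SD of Npy2r was lower than that of most genes in control hippocampus (percentile 3.23) and higher than that of most genes in cTKO hippocampus (percentile 96.2). The direction of the mean turned to -0.05, -0.09 and -0.04 when cTKO libraries 2, 4 or 5 were left out. The low and high libraries of Npy2r were not those of Npy, since library 1 was high for Npy and low for Npy2r and library 5 was low for Npy and high for Npy2r. Libraries with and without Xist were found at both levels of Npy2r.

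Npy5r was between 4.05 and 5.36 CPM in control neocortex and between 4.37 and 5.53 CPM in cTKO neocortex, with a log2 fold change of 0.06 (95% interval -0.24 to 0.36). In the hippocampus the controls spanned 7.19 to 8.30 CPM and the cTKO libraries 6.83 to 8.26 CPM, with a log2 fold change of -0.04 (95% interval -0.26 to 0.18). Npy5r had the smallest log2 fold change of the 4 genes in both regions, and its intervals reach no further than -0.26 and 0.36.

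By the quasi-likelihood test, 0 of the 4 genes were called in the neocortex, where 0.188% of all genes tested were, and 0 of 4 in the hippocampus, where 0.489% were. At an unadjusted p under 0.05 the counts were 2 of 4 in the neocortex (Npy and Npy2r), against 10.4% of all genes, and 1 of 4 in the hippocampus (Npy), against 12% of all genes. Each of the other tests (edgeR's exact and likelihood ratio tests, then DESeq2) called 1 of 4, Npy, in both regions, against 1.18%, 1.21% and 1.6% of all genes in the neocortex and 1.88%, 1.89% and 2.42% in the hippocampus. In neither region did any of the 4 genes have genotypes that did not overlap, which 2.39% of the genes had in the neocortex and 3.01% in the hippocampus. Npy was among the genes the study called on these same libraries, so its difference here is not independent evidence. The paper also measured the genes it called in both regions, Npy among them, by qRT-PCR in other mice. It reports the same directions there, with Fndc9, Foxm1 and Top2a alone not statistically significant. That qRT-PCR is not part of the data used here.

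The difference between the regions' genotype effects was tested directly. For Npy, the log2 fold change was larger in the hippocampus by 0.70 (95% interval 0.03 to 1.37), with an unadjusted p of 0.0420 and an FDR of 0.99991 by the quasi-likelihood test. Over all genes, 0.0564% passed this test and 3.75% had an unadjusted p under 0.05. For the receptors the difference was 0.28 for Npy1r (95% interval -0.08 to 0.64), -0.40 for Npy2r (-1.03 to 0.24) and -0.09 for Npy5r (-0.40 to 0.23). None of the 4 genes was shown to respond differently in the 2 regions.

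**Figure D3:**
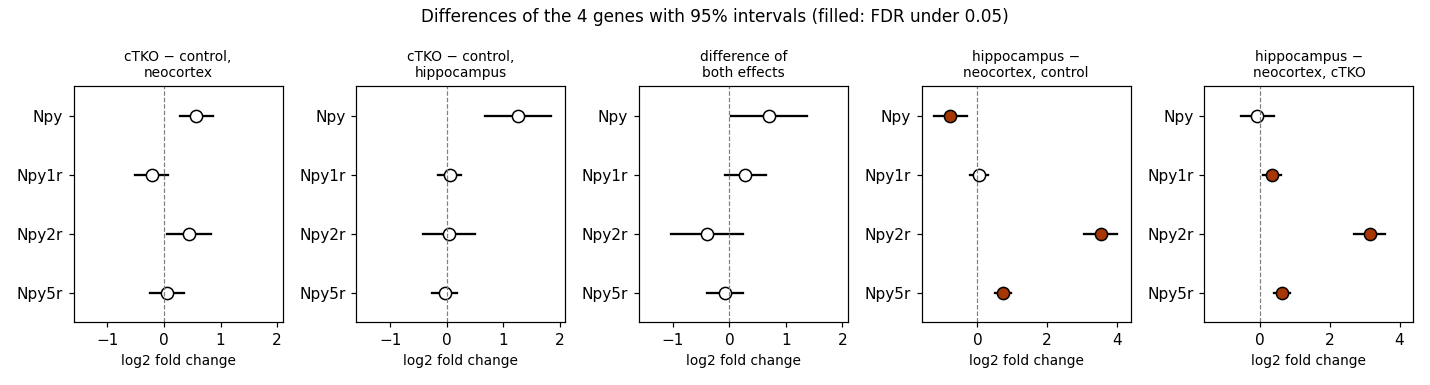
Points show the log2 fold change of each gene, and lines its 95% interval, in the 2 genotype comparisons, their difference and the 2 region comparisons, with filled points for an FDR under 0.05 by the quasi-likelihood test. The points of both genotype comparisons are open, with Npy at 0.57 and 1.26, and those of Npy2r in the region comparisons are filled at 3.54 and 3.14.

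The regions differed in 3 of the 4 genes in control mice, where 51.1% of all genes passed, so the number of genes called is near that of the whole transcriptome and the sizes carry the description. Npy2r was higher in the hippocampus by 3.54 on the log2 scale (95% interval 3.07 to 4.01, FDR 4.84e-11 by the quasi-likelihood test), or 11.6-fold, from 6.01 ± 1.01 CPM to 69.5 ± 2.03 CPM (SD, n = 5 each). Npy5r was higher in the hippocampus by 0.72 (95% interval 0.50 to 0.95, FDR 1.16e-05), from 4.72 ± 0.628 to 7.82 ± 0.404 CPM. Npy was lower in the hippocampus by a log2 fold change of -0.77 (95% interval -1.25 to -0.30, FDR 0.00765). Npy1r, which shares its locus with Npy5r, had a log2 difference of 0.05 (95% interval -0.20 to 0.31, FDR 0.738). For Npy, Npy2r and Npy5r the libraries of the regions did not overlap in controls, as for 43.5% of all genes. Control libraries pair across the regions by number, all 5 pairs went the same way for each of the 3 genes, and exact sign flips of the 5 differences gave a two-sided p = 0.0625, the smallest that 5 pairs allow.

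In cTKO mice, 3 of the 4 genes again differed between regions, where 49.6% of all genes passed, but they were not the same 3. Npy2r was higher in the hippocampus by 3.14 on the log2 scale (8.82-fold, 95% interval 2.69 to 3.60, FDR 1.88e-10) and Npy5r by 0.64 (95% interval 0.41 to 0.86, FDR 4.89e-05). For Npy the difference was -0.08 (95% interval -0.55 to 0.39, FDR 0.804), so the neocortical excess of Npy seen in controls was not detected, and whether the genotypes differ in this excess is what the test of the regions' genotype effects asked. Npy1r was higher in the hippocampus by 0.34 (95% interval 0.08 to 0.59, FDR 0.0270), a call that was lost without cTKO hippocampus 2, 4 or 5 or cTKO neocortex 1 or 3 (FDR 0.0513 to 0.0815) and in a fit of the cTKO libraries alone (log2 difference 0.32, FDR 0.0694). The 2 regions did not overlap in cTKO mice for Npy2r and Npy5r, as for 28.5% of all genes.

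Ordered by level, Npy was lowest in control hippocampus, then came control neocortex, cTKO hippocampus and cTKO neocortex at 74.1, 127, 177 and 187 CPM. Control hippocampus and control neocortex differed beyond their spread, and cTKO hippocampus and cTKO neocortex did not, and control neocortex was not compared with cTKO hippocampus. Npy1r ran from 31.0 CPM in cTKO neocortex over 36.3 CPM in control neocortex and 37.6 CPM in control hippocampus to 38.9 CPM in cTKO hippocampus, with no neighbouring pair that passed a test. For Npy2r and Npy5r both neocortical groups came first and both hippocampal groups last, and within a region neither gene passed the test for genotype. The libraries of cTKO hippocampus lay on both sides of the controls for Npy2r.

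The other members of the peptide family were close to undetected. Over all 20 libraries, Pyy, which encodes a gut hormone, had 0 counts, Ppy, which encodes pancreatic polypeptide, 1 count, the Y4 receptor gene Npy4r 5 counts and Npy6r, a further receptor gene, 8 counts. They were not tested, and at this depth no level above 0.0946 CPM was seen for any of them in any library. Npy1r, Npy2r and Npy5r are thus the receptors whose transcripts could be compared here.

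Genes of the pathway around NPY were taken from 8 further lists, of which 69 genes were tested in the neocortex and 71 in the hippocampus. By the quasi-likelihood test, 1 of 69 rose and 0 fell in the neocortex, while 3 of 71 rose and 1 fell in the hippocampus, which is 1.45% and 5.63% of them. Of all genes, 0.0867% rose and 0.101% fell in the neocortex, and 0.314% rose and 0.175% fell in the hippocampus. The lists were chosen with earlier results of these data known, and the study had called Bdnf, a listed gene, on these same libraries. The shares of the lists are therefore no separate support for a change of this pathway. The listed genes had median log2 fold changes of 0.02 and 0.04 in these regions, and all genes tested 0.0090 and 0.0049. The neocortical count was 7 without cTKO neocortex 5, 4 without cTKO neocortex 3 and 0 without any other single library. The hippocampal count was 0 without control hippocampus 1, 4 or 5 or cTKO hippocampus 2, 1 without control hippocampus 2 or 3, 2 without cTKO hippocampus 1, 3 without cTKO hippocampus 4 and 5 without cTKO hippocampus 3 or 5. Over the other settings the counts ranged from 0 to 7 and from 3 to 13.

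Of 9 genes of prohormone processing and amidation, 1 rose in the hippocampus. Pcsk5, which encodes a proprotein convertase, was at 15.1 to 18.1 CPM in control and 21.3 to 31.9 CPM in cTKO hippocampus, groups that did not overlap (log2 fold change 0.65, 95% interval 0.40 to 0.90, FDR 0.0257 by the quasi-likelihood test). Its value in the neocortex was 0.28 (FDR 0.399). The next gene by p in the hippocampus, Pcsk2, which encodes the convertase of dense-core vesicles, had a log2 fold change of 0.12 (FDR 0.501), and in the neocortex it was Pam, the amidating enzyme, at 0.07 (FDR 0.718). Of 6 peptidases known to cut NPY, 0 passed in either region, 0 were higher and 1 was lower at an unadjusted p under 0.05 in the neocortex, and none was in the hippocampus. For Dpp8 the values were -0.16 (FDR 0.443) and -0.14 (FDR 0.431), for Xpnpep1 0.07 in the neocortex (FDR 0.846) and for Mme, the gene of neprilysin, -0.38 in the hippocampus (FDR 0.551).

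Of 9 genes of dense-core vesicle cargo and release, 0 passed in either region. At an unadjusted p under 0.05, 4 were higher and 1 was lower in the neocortex, and 5 were higher and 1 was lower in the hippocampus. Over all genes tested, 10.4% in the neocortex and 12% in the hippocampus had such a p in either direction. Their median was 0.12 in the former and 0.28 in the latter region. The granin genes Chgb and Scg2 had the smallest p in the hippocampus, with 0.32 for Chgb (FDR 0.0927) and 0.42 for Scg2 (FDR 0.129), and Vgf, a peptide precursor, had 0.48 in the neocortex (FDR 0.193). Cadps2, which primes dense-core vesicles for release, had -0.41 in the neocortex (FDR 0.112). Scg2 in the hippocampus and Cadps2 in the neocortex had groups that did not overlap.

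Of 11 genes for Gi/o proteins, their regulators and the GIRK channels they open, 0 passed in the neocortex and 1 rose in the hippocampus. Rgs4, which shortens Gi/o signals, was at 166 to 202 CPM in control and 243 to 426 CPM in cTKO hippocampus, without overlap (log2 fold change 0.75, 95% interval 0.47 to 1.03, FDR 0.0236 by the quasi-likelihood test). In the neocortex its log2 fold change was 0.03 (95% interval -0.13 to 0.20). The channel genes had smaller differences, Kcnj3 with 0.10 in the hippocampus (FDR 0.643) and Kcnj9 and Kcnj6 with -0.28 (FDR 0.124) and -0.09 (FDR 0.698) in the neocortex.

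Of 8 genes known to induce Npy transcription, 0 passed in the neocortex and 1 rose in the hippocampus. Bdnf, a neurotrophin that raises Npy in cultured neurons, was at 44.5, 43.0, 47.0, 39.9 and 42.8 CPM in control hippocampus and at 91.7, 98.6, 164, 97.4 and 50.1 CPM in cTKO hippocampus. Every cTKO library was above every control library, and cTKO library 5 was the lowest of its group for Bdnf as for Npy, while library 3 was highest for Bdnf and libraries 1 and 2 for Npy. The log2 fold change of Bdnf was 1.21 (95% interval 0.73 to 1.70, FDR 0.0347 by the quasi-likelihood test) in the hippocampus and 0.76 (95% interval 0.39 to 1.12, FDR 0.108) in the neocortex. Among the others, Fos had -0.57 in the hippocampus (FDR 0.541) and Crtc1, a coactivator of CREB, -0.19 in the neocortex (FDR 0.340).

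Of 12 genes that mark the interneuron classes known to hold Npy, 0 passed in the neocortex and 1 fell in the hippocampus. Lamp5, which among interneurons marks neurogliaform cells, was at 35.9 to 45.4 CPM in control and 25.1 to 32.3 CPM in cTKO hippocampus. Its groups did not overlap there (log2 fold change -0.52, 95% interval -0.70 to -0.33, FDR 0.0204 by the quasi-likelihood test), and it had -0.47 in the neocortex (FDR 0.187). In control neocortex the mean of Lamp5 was 232 CPM and that of Ndnf, of the same list, 11.2 CPM. Ndnf, Reln and Id2 of the same list had -0.05, 0.09 and 0.18 in the hippocampus (FDR 0.910, 0.754 and 0.665). In the neocortex they had 0.03, 0.10 and 0.10 (FDR 0.957, 0.822 and 0.649). Which cells hold the RNA of Lamp5, and whether the number of neurogliaform cells changed, was not tested. At an unadjusted p under 0.05, 3 of the 12 were higher and 1 was lower in the neocortex, and 3 were higher and 2 lower in the hippocampus. All genes tested reached that threshold, in either direction, at 10.4% in the neocortex and 12% in the hippocampus. Cort, a peptide of a somatostatin class, had -1.08 in the hippocampus (FDR 0.0757), and the 3 higher genes there were Gad2 with 0.30 (FDR 0.0897), Gad1 with 0.19 (FDR 0.332) and Tacr1 with 0.50 (FDR 0.380). Gad2, which encodes an enzyme of GABA synthesis and marks interneurons at large, had 0.45 in the neocortex (FDR 0.121). The median over the 12 genes was 0.12 and 0.14 in the respective regions. Of 8 genes listed for other interneuron classes, 1 rose in the neocortex. Crhbp, which binds corticotropin releasing hormone, was at 20.4 to 23.8 CPM in control and 25.9 to 39.1 CPM in cTKO neocortex. Its groups did not overlap (log2 fold change 0.59, 95% interval 0.38 to 0.81, FDR 0.0352 by the quasi-likelihood test). That the 8 genes are confined to cells without Npy was not tested. In this list Crhbp had 0.29 in the hippocampus (FDR 0.446), the peptide gene Vip -0.35 in the neocortex (FDR 0.294) and Cck -0.31 in the hippocampus (FDR 0.184).

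Of the genes that mark dentate granule cells, 0 of 6 passed in the neocortex and 0 of 8 in the hippocampus, where 1 was higher and 3 were lower at an unadjusted p under 0.05, against 12% of all genes in either direction. The granule cell genes did not move one way: C1ql2, a synaptic organiser of mossy fibres, had a log2 fold change of 0.77 (FDR 0.0861) and Calb1, a calcium buffer, -0.54 (FDR 0.0568) in the hippocampus. In the neocortex C1ql2 had 0.53 (FDR 0.433) and Pdzd2 -0.16 (FDR 0.462).

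The 5 calls depended on which libraries were used. When each of the 10 libraries of a region was left out in turn, Lamp5 passed in 6 of 10 fits, Rgs4 in 4, Pcsk5 in 3, Bdnf in 2 and Crhbp in 2, and the sign of all 5 stayed the same. With the replicate block, Rgs4 (FDR 0.0547) and Crhbp (FDR 0.0599) did not pass, and Pcsk5, Bdnf and Lamp5 did. This block joins control and cTKO libraries of the same number, which were not shown to pair. In the hippocampus, Bdnf passed only without cTKO library 3 or 5, and in the neocortex, Crhbp only without cTKO library 3 or 5. Choroid plexus markers summed to 71.8 to 2624 CPM in control hippocampus, where library 3 was highest and the next at 478 CPM, and to 108 to 584 CPM in cTKO hippocampus, so the groups overlapped. Of the 4 markers, 0 passed the FDR and 3 were lower at an unadjusted p under 0.05, a threshold met by 12% of all genes in either direction. The part of choroid plexus in the hippocampal results was not tested.

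**Figure D4:**
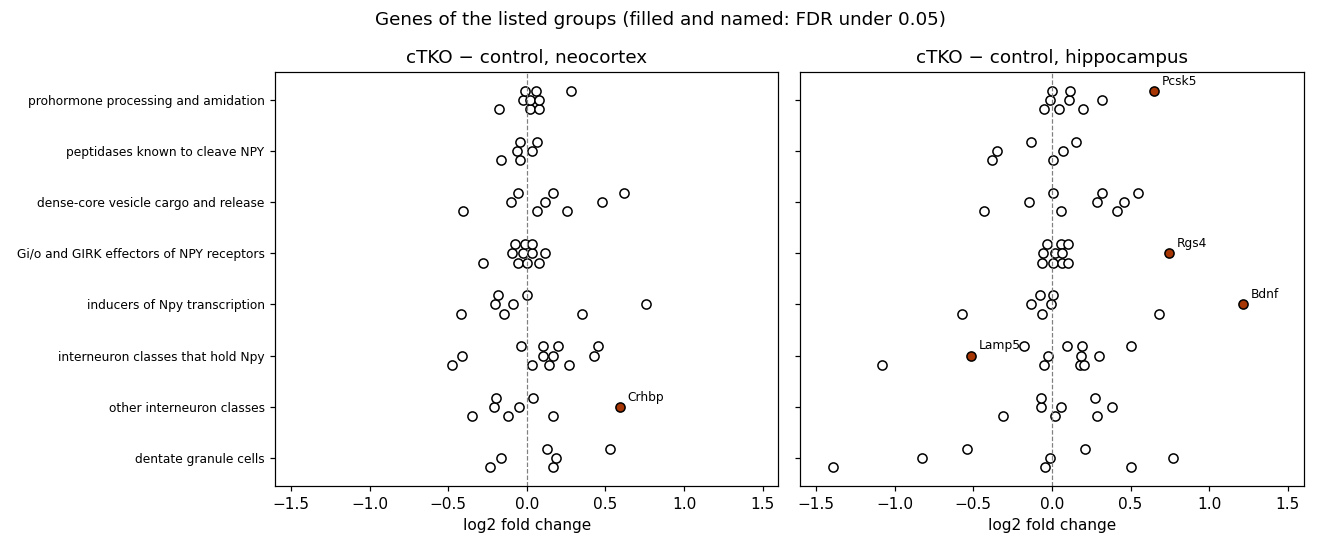
Each point is a listed gene, placed by its log2 fold change between cTKO and control (x axis) and its list (y axis, with points offset for clarity), in the neocortex on the left and the hippocampus on the right. Filled and named points passed an FDR of 0.05: Crhbp in the neocortex, and Pcsk5, Rgs4, Bdnf and Lamp5 in the hippocampus.

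The genes whose levels were most like those of a member were ranked over 13468 genes by the lower of 2 Pearson correlations of log2 CPM, one over the 10 neocortical and one over the 10 hippocampal libraries. These libraries include both genotypes, so a shared genotype difference is part of the likeness. For Npy they were Ngfrap1 (r = 0.919 in the neocortex and 0.933 in the hippocampus), Uchl1 (0.935 and 0.919), Ly6g6e (0.881 and 0.924), Sh3bgrl3 (0.919 and 0.858) and Tmeff2 (0.868 and 0.847). Uchl1, an abundant neuronal ubiquitin hydrolase, was at 729, 636, 518, 483 and 477 CPM in cTKO hippocampus libraries 1 to 5 and at 446 to 480.0 CPM in controls, so that it was high where Npy was high, which the ranking selected for. Sh3bgrl3 and Tmeff2 rose in cTKO hippocampus, by log2 fold changes of 0.47 (FDR 0.0236) and 0.53 (FDR 0.0123). With single libraries left out, Sh3bgrl3 passed in 4 of 10 fits (FDR up to 0.0829) and Tmeff2 in 9 of 10, and Sh3bgrl3 did not pass with the replicate block (FDR 0.0612).

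The receptors had other neighbours, with lower likeness. For Npy2r they were Mef2a (r = 0.801 in the neocortex and 0.816 in the hippocampus), Pdk1 (0.778 and 0.865) and Bbs9 (0.777 and 0.833). Pdk1 was at 51.0, 71.5, 50.1, 67.1 and 71.7 CPM in cTKO hippocampus libraries 1 to 5 and at 54.3 to 61.6 CPM in controls, which is the split seen for Npy2r. Pdk1 was picked by its likeness over these same libraries, so this is no separate support. For Npy1r they were Golga1 (r = 0.759 and 0.796), Rbm10 (0.746 and 0.818) and Ppp1r10 (0.809 and 0.741), and for Npy5r Fam133b (0.694 and 0.737), Mrpl47 (0.787 and 0.679) and Rad1 (0.646 and 0.642). None of the 4 members was among the neighbours of another.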

How the data were processed

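RNA-seq counts of 20 libraries were used. Per the labels and the paper, the authors mapped reads of 100 bases to mm10 with STAR 2.5.4a, assigned them to genes with HTSeq and deposited raw counts named by gene symbol. The strand setting and the annotation of the counting are not given in the sources used here.

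The filter kept genes whose CPM exceeded 1 in 5 or more libraries of a fit, and genotypes were compared in each region (10 libraries) with edgeR 4.0.16 in R 4.3.3 (TMM, glmQLFit, glmQLFTest), with Benjamini-Hochberg adjustment over all genes tested and a threshold of 0.05. Regions, and the difference between genotype effects, were tested in 1 fit of all 20 libraries. The standard error is the log2 fold change over the root of F. Single levels (log2 CPM, prior count 2) were compared by exact permutation over 252 splits, in 16 tests whose p-values are not adjusted, and control regions by sign flips of 5 pairs, added after seeing the data. RPKM divides CPM by the exon union of GENCODE M21. Alternatives were edgeR's exact and likelihood ratio tests, DESeq2 1.42.0, other filters and size factors, a robust fit, a fit of all 20 libraries, the replicate block, a covariate for Xist and the removal of single libraries. Those of the listed genes were added after seeing the data.

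The members and lists were chosen with earlier results of these data known. Named were the 4 members, App, Aplp1 and Aplp2, listed genes with an FDR under 0.05 or among the 2 smallest p of their list and region, and the 5 (Npy) or 3 (receptors) genes most like a member. Wfs1 and the other 3 genes of its list, Gfap, Aqp4, Aldh1l1, Gad1, Tacr1, Ndnf, Reln and Id2 were named after their values were seen. The fits were tested on simulated data with known changes. Counting floors of 3 counts cover only the error of counting, as these reads carry no molecular identifiers and need not be separate molecules. Libraries of the same number pair across the regions in controls, where their deviations from the group means correlate at 0.129 to 0.334 in 5 of 5 pairs, and the Xist state matches in 5 of 5. In cTKO mice the pairing is partial, with 3 of 5 pairs above 0.1 (-0.0712 to 0.396) and the Xist state matching in 5 of 5. The rule of every pair above 0.1 is not met there, nor is it between genotypes (-0.00917 to 0.221 in the neocortex, -0.137 to 0.14 in the hippocampus). Across numbers, cTKO neocortex 5 and cTKO hippocampus 4, the libraries with the high sums of embryonic markers, correlated at 0.575. No library was a copy of another. Figures were drawn with matplotlib 3.10.9 in Python 3.11.15.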

Additional observations from a re-analysis of the deposited data

How the results depend on the processing

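The number of genes called for genotype depended on the test. In the neocortex it was 26 by the quasi-likelihood test, 163 by edgeR's exact test, 167 by the likelihood ratio test, 221 by DESeq2 and 42 without a filter on low counts, and leaving out single libraries gave 7 to 133, the highest without cTKO neocortex 5. In the hippocampus it was 67, against 257, 259 and 331 by these other tests and 189 in a fit of all 20 libraries, and 15 to 149 when single libraries were left out. For the difference between regions it was 8, against 26 by the likelihood ratio test and 26 by DESeq2, and 5 to 20 when single libraries were left out.

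Npy passed in the neocortex by edgeR's exact and likelihood ratio tests (log2 fold change 0.57 in both) and by DESeq2 (0.57), and ranged from 0.44 to 0.65 when single libraries were left out. In the hippocampus it passed by the same alternatives and in the fit of all 20 libraries (1.26 in each), and with Xist as a covariate (1.20), and ranged from 1.04 to 1.45. On library totals without TMM the difference of mean log2 CPM of Npy in the hippocampus was 1.13. Left-out libraries moved Npy2r in the hippocampus between -0.093 and 0.18, Npy5r there between -0.074 and 0.0020, Npy1r between the control regions from -0.022 to 0.14, and in cTKO mice the regional difference of Npy from -0.30 to 0.11 and that of Npy1r from 0.23 to 0.41. Npy1r fell short there with cTKO libraries alone (0.32). Apart from the paired tests given next, every other result of the 4 genes kept its direction and its side of the threshold.

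With the replicate number as a block, the counts were 12 in the neocortex, 58 in the hippocampus and 18 for the difference between regions. In the genotype fits the block joins control and cTKO libraries by number, though these were not shown to pair. The log2 fold change of Npy2r in the hippocampus turned to -0.043, that of Npy was 0.56 (FDR 0.0578) in the neocortex and 1.14 (FDR 0.0709) in the hippocampus, and the block changed no other direction or call of the 4 genes in these fits. Of the other named genes that passed, Rgs4 (0.72) and Sh3bgrl3 (0.46) in the hippocampus and Crhbp (0.58) in the neocortex did not pass with the block. Paired by number, the control regions differed in mean log2 CPM by -0.77 for Npy, 3.52 for Npy2r and 0.72 for Npy5r, where 5 pairs cannot give an exact p under 0.0625. The fit without cTKO neocortex 5 and cTKO hippocampus 4 together equals, within a region, the fit without that region's library. The causes of these differences were not tested. Npy5r, with as few as 49 counts in a library, has the least depth behind it.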
